A study of Mus musculus with 6 samples.

Results

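The receptors for interleukin 6 (IL-6) and interferon gamma, the kinases Jak2 and Tyk2, the transcription factor Stat3 and the feedback inhibitors Socs1, Socs3 and Cish were examined in the thymus of mice that carry a miR-181d transgene (Tg-38) and of wild type mice. The members were 10 of the 19057 genes named by the array, and every probe that the platform's annotation lists under one of them was taken, which gave 22 of the 45281 probes of the Illumina MouseWG-6 v2 array. The genes were chosen by pathway with the Tg-38 minus wild type log2 differences of these same arrays already known, those of Il6ra and Ifngr1 among them. The differences of the members are therefore given as a description, with their spread and with no p-value. Thymi came from 3 wild type C57BL/6 mice and 3 C57BL/6 mice of the Tg-38 line, with 1 array per mouse and no treatment named in the labels. Tg-38 is a single transgenic line in which a VA-hCD2 cassette drives the primary transcript of miR-181d in thymocytes and peripheral T cells. The labels do not give the age of the mice, and the paper states a range in weeks for the mice of all its experiments. The labels name the thymocyte as the cell type, but each array read the RNA of the whole organ, so epithelium, macrophages and blood are included and fewer cells of a type cannot be told apart from less RNA per cell. Of 8 markers of CD4+CD8+ (DP) thymocytes with a probe, 7 were detected and tested, and Cd8a was not.

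IL-6 binds the receptor chain Il6ra, and the pair recruits gp130, the signal-transducing chain encoded by Il6st, which activates Janus kinases and through them Stat3. Interferon gamma binds Ifngr1, which pairs with Ifngr2 and signals through the kinases Jak1 and Jak2. Cytokine signals induce the SOCS genes, whose products shut the same receptors and kinases down. Socs1 blocks the kinases of the interferon gamma receptor, Socs3 binds gp130, and Cish is a classic gene induced by Stat5. In the thymus, receptors of this kind are found on thymocytes as well as on stromal and myeloid cells.

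The transgene adds miR-181d, whose mature strand is shown beside those of its family because the seed, bases 2 to 8 from the 5' end and set in capitals, is the part by which a microRNA pairs with its targets. The sequences are those of RefSeq (GRCm38.p6). All 4 share the seed ACAUUCA.
mmu-miR-181a-5p: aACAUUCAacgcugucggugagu
mmu-miR-181b-5p: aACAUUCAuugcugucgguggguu
mmu-miR-181c-5p: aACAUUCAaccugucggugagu
mmu-miR-181d-5p: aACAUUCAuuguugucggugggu
Compared base by base over 23 positions, miR-181d-5p differed from miR-181b-5p at 1 position and from miR-181a-5p at 4. The level of miR-181d was not analysed here, and target sites in the members were not searched.

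Of the 22 member probes, 19 were detected on all 6 arrays at a detection p under 0.05 against the negative controls of the array. The other 3, 1 of Il6st and 2 of Jak2, were not detected on any array and have no level. The 19 were among the 18352 probes detected on at least 3 arrays, which were background-corrected and quantile-normalized to log2 levels and compared with limma's moderated two-sided test, adjusted by Benjamini-Hochberg over all of them. In this fit 2 member probes, both of Il6ra, were higher in Tg-38 at an adjusted p under 0.05 and 0 were lower, where 1.1% of all probes tested passed (0.801% higher and 0.3% lower). Since the list was chosen with this contrast known, nothing is read from that count. The groups did not overlap on 4 member probes that were higher in Tg-38 and 1 that was lower, beside 11.4% and 11.2% of all probes tested. The median log2 difference (Tg-38 minus wild type) was -0.10 over the 19 member probes and -0.01 over all probes tested.

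Total signal differed between the arrays before normalization. The deposited signals of the Tg-38 arrays had medians of 123 to 129 and those of the wild type arrays 129 to 140.7, and 17674 to 18526 probes were detected per array. On the deposited signals the groups did not overlap on 31% of all probes tested with Tg-38 lower, and on 0.959% with Tg-38 higher. Of the 19 member probes, 7 were lower in this way and 1, an Il6ra probe, was higher. The second principal component of the log2 levels, with 21.7% of the variance, set wild type replicate 2 apart. Normalized levels are used from here on unless the deposited signal is named.

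Il6ra, the chain that binds IL-6, had a higher mean in Tg-38 thymus on all 3 of its probes. The ratio was 2.01-fold on ILMN_1255743, 1.79-fold on ILMN_2706430 and 1.40-fold on ILMN_1216057. The deposited signals kept the groups apart only on ILMN_1255743, and on ILMN_1216057 the groups also overlapped after normalization. On probe ILMN_1255743 the deposited signals were 337.1, 286.5 and 236.3 in wild type replicates 1 to 3 and 486.8, 387.3 and 340.9 in Tg-38 replicates 1 to 3. All Tg-38 mice were above all wild type mice, although the lowest Tg-38 signal exceeded the highest wild type signal only slightly. After normalization the log2 levels were 7.49, 7.44 and 7.10 in wild type and 8.61, 8.30 and 8.13 in Tg-38, and the groups were 0.64 apart at their nearest points. The mean rose from 7.34 ± 0.22 to 8.35 ± 0.24 (SD, n = 3 each), a log2 difference of 1.00 with a standard error of 0.16.

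Probe ILMN_2706430 of Il6ra lay close to the limit of detection. Its deposited signals of 160.4, 145.6 and 143.1 in wild type overlapped with 192, 156.5 and 160.2 in Tg-38. Normalized, the log2 levels were 5.36, 5.24 and 5.31 in wild type and 6.43, 5.86 and 6.11 in Tg-38, so the separation on this probe appeared only after normalization. The log2 difference was 0.84 (standard error 0.15), and it was 0.28 without background correction and 0.33 with the authors' processed intensities. Probe ILMN_1216057 had log2 levels of 5.47, 5.21 and 5.93 in wild type and 6.20, 6.01 and 5.84 in Tg-38. Wild type replicate 3 lay above Tg-38 replicate 3, and the log2 difference of 0.48 (standard error 0.18) did not pass. The annotation gives no position for the 3 probes on the gene, so it is not known here whether they read the same transcripts.

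**Figure D1:**
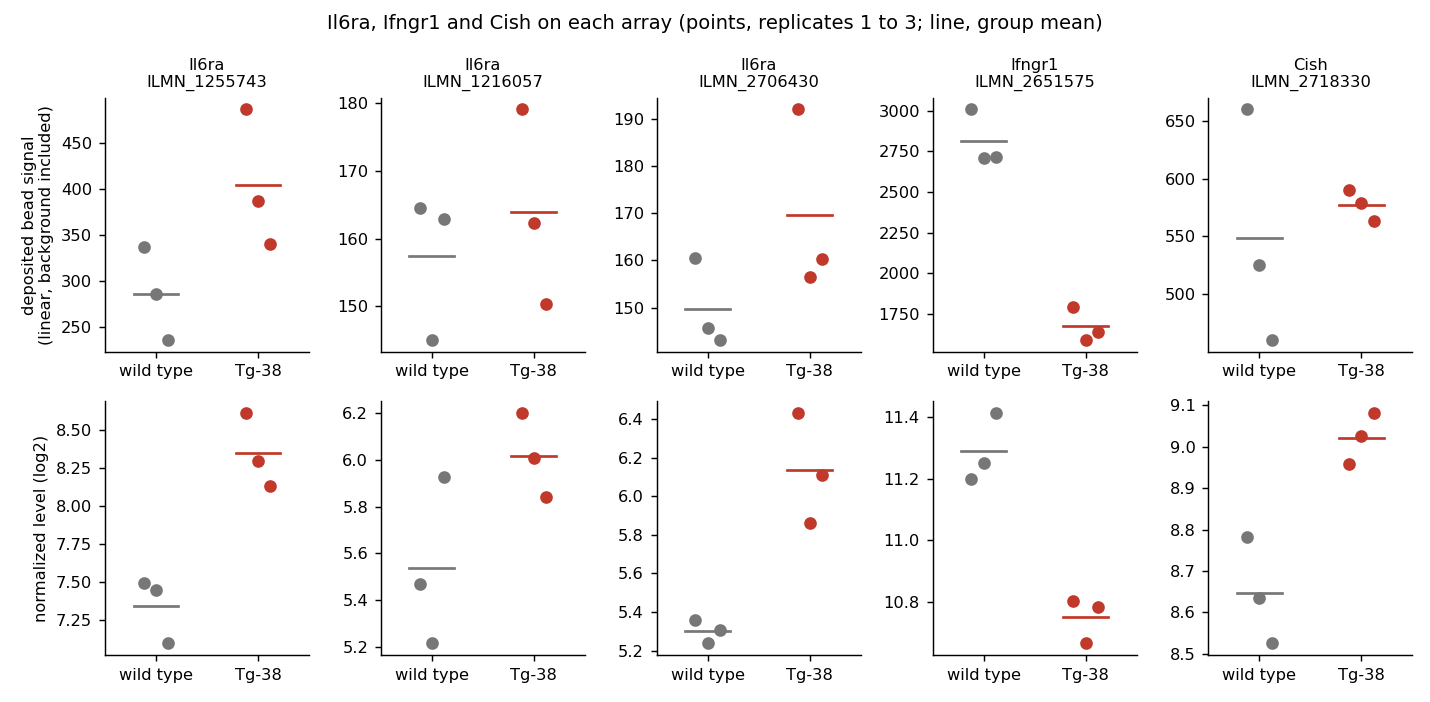
Level of Il6ra (3 probes), Ifngr1 and Cish on each array, as the deposited linear bead signal (upper row) and as the normalized log2 level (lower row), with 1 point per mouse and the group mean as a line. The axes do not start at 0 and differ between panels. Ifngr1 and Il6ra probe ILMN_1255743 keep the groups apart in both rows, while Il6ra probe ILMN_2706430 and Cish do so only in the lower row.

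The calls of Il6ra did not hold when arrays were left out. Without wild type replicate 2, ILMN_1255743 passed and ILMN_2706430 did not. Without any 1 of the other 5 arrays both of these probes missed the threshold. The size of the difference changed less, from 0.88 to 1.11 on ILMN_1255743 and from 0.69 to 0.98 on ILMN_2706430 on the log2 scale over the 6 omissions. Over all 16 alternatives ILMN_1255743 stayed above 0, at 0.69 to 1.11, and passed in 8 of them, and ILMN_2706430 stayed at 0.28 to 0.98 and passed in 5.

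The marker lists of other cells had medians above 0 for some cells and below 0 for others, and on some lists the groups overlapped. Summed over the tested markers on the linear normalized scale, macrophage genes gave 1052 to 1079 in wild type and 1221 to 1409 in Tg-38 (6 of 8 with a probe tested, 5 above 0, none called, median log2 difference 0.41). Genes of mature single-positive thymocytes gave 4365 to 5075 and 5828 to 7000 (5 of 6 tested, 4 above 0, Il7r and Itgb7 called higher, median 0.51). Neutrophil genes gave 4623 to 6294 and 5889 to 11670 (all 6 tested and above 0, none called, median 0.65), so these groups overlapped. Thymic epithelial genes gave 782.4 to 1183 and 1228 to 1442 (6 of 9 tested, 5 above 0, none called, median 0.39). Dendritic cell genes gave 440.8 to 521.2 and 707 to 872.8 (3 of 8 tested, Cd86 called higher with a log2 difference of 1.13, median 0.12). Cd86 was the brightest of them and weighed most in this sum, and Batf3 and Siglech had log2 differences of 0.12 and -0.01. Of the NK or cytotoxic cell genes, Klrd1 and Nkg7 were called higher, with log2 differences of 2.16 and 1.16. Fibroblast or mesenchyme genes gave 327.5 to 807.9 in wild type and 512.9 to 718.2 in Tg-38 (2 of 6 tested, none called, median 0.26). Endothelial genes gave 370 to 424.4 and 345.5 to 390.9 (2 of 5 tested, none called, median -0.09). The groups overlapped on both of these lists. B cell and erythroid genes, given with Ifngr1, lay below 0. Cd14 and Fcgr1 of the macrophage list and S1pr1 of the mature thymocyte list were not detected on enough arrays to be tested. The part of these cells in the Il6ra difference was not tested.

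Il6st, which encodes gp130, the chain shared by receptors of the IL-6 family, was not called in either direction. The deposited signals of probe ILMN_2608184, at 408.2, 410.6 and 379.3 in wild type and 310.6, 283.6 and 327.8 in Tg-38, did not overlap and were lower in Tg-38. It had log2 levels of 7.88, 8.18 and 8.16 in wild type and 7.69, 7.63 and 8.06 in Tg-38. Tg-38 replicate 3 lay above wild type replicate 1, so the groups overlapped, with a log2 difference of -0.28 (95% interval -0.62 to 0.05). It lay below 0 in all 16 alternatives, at -0.44 to -0.20. The difference of Il6ra ILMN_1255743 and that of Il6st therefore had opposite signs, but whether they differ was not tested.

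Ifngr1, the chain that binds interferon gamma, was the 1 member whose normalized level was higher in every wild type mouse than in every Tg-38 mouse. The deposited signals of its only probe, ILMN_2651575, were 3008.1, 2711.1 and 2718.3 in wild type and 1792.6, 1589.9 and 1642.5 in Tg-38. The normalized log2 levels were 11.20, 11.25 and 11.41 in wild type and 10.80, 10.67 and 10.79 in Tg-38, with a gap of 0.40 between the groups. The means were 11.29 ± 0.11 and 10.75 ± 0.07 (SD, n = 3 each), which is a log2 difference of -0.54 (standard error 0.11), or 1.45-fold higher in wild type. The probe did not pass the adjusted threshold in the fit described above. It passed as lower in 7 of 16 alternatives, among them detection on all 6 arrays, an intensity trend and the authors' processed intensities, and its value ranged from -0.72 to -0.48.

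Ifngr2, the second chain of the interferon gamma receptor, overlapped between the groups on all 3 probes. On ILMN_2784272 the log2 levels were 9.81, 9.91 and 9.49 in wild type and 9.61, 9.62 and 9.73 in Tg-38. Wild type replicate 3 was the lowest of the 6 mice and replicates 1 and 2 the highest, with a log2 difference of -0.09 (95% interval -0.39 to 0.21). The other probes had log2 differences of -0.13 (-0.49 to 0.22) on ILMN_2592709 and -0.24 (-0.56 to 0.08) on ILMN_1258300. On the 2 probes last named, and not on the first, the deposited signals of the groups did not overlap.

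Interferon gamma and IL-6 themselves were not detected. Ifng had 2 probes, with deposited signals of 111.5 to 129.3 and detection p-values of 0.10 to 0.76, and the probe of Il6 had signals of 115.9 to 130 and detection p-values of 0.17 to 0.47. None of these probes was detected on any of the 6 arrays, so a difference in either cytokine was not detectable on these arrays.

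Beside Ifngr1, the summed level of the tested DP thymocyte markers was 45160 to 46460 in wild type and 39830 to 42060 in Tg-38 (7 tested, 6 below 0, none called, median log2 difference -0.13). Cd8b1 was the brightest of them and weighed most in this sum, with mean log2 levels of 14.83 in wild type and 14.70 in Tg-38. The 1 marker above 0 was Ptcra, at 0.31. Of B cell markers 3 had a probe and 1, Cd79b, was tested, with 543.2 to 710.2 in wild type and 367.4 to 462.6 in Tg-38 on its brightest probe, which was not called, while a dimmer Cd79b probe was called lower (log2 difference -0.65). The 2 erythroid markers tested, Hba-a1 and Alas2, summed to 10960 to 25540 in wild type and 3846 to 9468 in Tg-38, and neither was called. The part of these cells in the Ifngr1 difference was not tested.

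**Figure D2:**
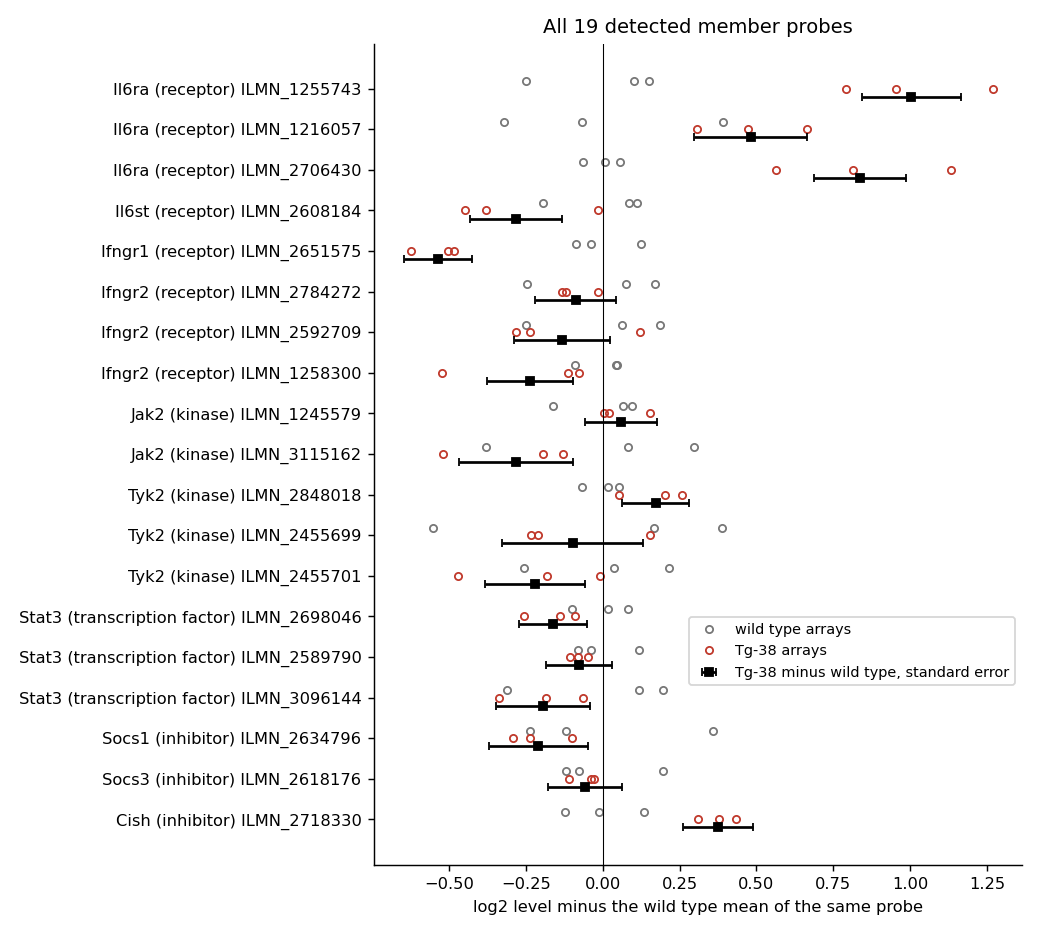
Levels of the 19 detected member probes on each array, as the log2 level minus the wild type mean of the same probe, for wild type (grey) and Tg-38 (red) mice, with the log2 difference and its standard error (black squares). Il6ra lies to the right at 0.48 to 1.00, Cish at 0.37 and Ifngr1 to the left at -0.54, and the other probes lie between -0.28 and 0.17.

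None of the detected kinase probes passed the threshold. Jak2, a kinase of the interferon gamma receptor and of several hormone receptors, had log2 levels of 9.85, 9.62 and 9.88 in wild type and 9.80, 9.93 and 9.79 in Tg-38 on ILMN_1245579. These values were interleaved, with a log2 difference of 0.06 (95% interval -0.21 to 0.32). ILMN_3115162, which the annotation lists under another Jak2 transcript, gave -0.28 (-0.70 to 0.14) with wild type values spread from 7.91 to 8.58. The 2 remaining probes of Jak2 were not detected.

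Tyk2, a kinase of the type I interferon, IL-12 and gp130 receptors, had its groups apart on 1 of 3 probes by a margin of 0.0009 on the log2 scale. The levels on ILMN_2848018 were 9.12, 9.20 and 9.24 in wild type and 9.39, 9.45 and 9.24 in Tg-38, a log2 difference of 0.17 (95% interval -0.08 to 0.42). Tg-38 replicate 3 and wild type replicate 3 were level with each other. With median scaling in place of quantile normalization the difference was -0.02, which was 0.12 relative to the median of all probes tested. ILMN_2455699 and ILMN_2455701 gave -0.10 (-0.62 to 0.42) and -0.22 (-0.59 to 0.15), and on both the groups overlapped.

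Stat3, the factor that carries the IL-6 signal to the nucleus, had values below 0 on all 3 probes and the groups overlapped on each. On ILMN_2698046 the log2 levels were 10.77, 10.84 and 10.66 in wild type and 10.67, 10.50 and 10.61 in Tg-38. Only wild type replicate 3 and Tg-38 replicate 1 crossed, by a small margin, and the difference was -0.16 (95% interval -0.41 to 0.09). ILMN_2589790 gave -0.08 (-0.32 to 0.16). ILMN_3096144, listed under another Stat3 transcript than the first 2, gave -0.20 (-0.54 to 0.15). The deposited signals of ILMN_2698046 and ILMN_2589790 were lower in all Tg-38 mice than in all wild type mice, with means of 2000 in wild type and 1510 in Tg-38 on the first. After normalization the groups overlapped.

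Among the inhibitors, Cish had its 3 Tg-38 mice above its 3 wild type mice, while Socs1 and Socs3 overlapped. The promoters of Cish and Socs3 are shown because they are the members whose window, 250 bases before to 50 after the start of the gene, holds the spaced palindrome TTCNNNGAA that STAT factors bind, set in capitals. The windows are those of RefSeq, GRCm38.p6, with Cish at chr9:107296409-107296708 on the plus strand and Socs3 at chr11:117969317-117969616 on the minus strand.
Cish: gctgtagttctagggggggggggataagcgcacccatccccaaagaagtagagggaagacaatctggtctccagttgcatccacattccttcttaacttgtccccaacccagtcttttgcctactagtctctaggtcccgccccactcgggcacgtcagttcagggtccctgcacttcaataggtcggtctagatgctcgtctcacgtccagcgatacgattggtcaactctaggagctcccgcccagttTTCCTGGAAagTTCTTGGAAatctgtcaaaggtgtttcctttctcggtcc
Socs3: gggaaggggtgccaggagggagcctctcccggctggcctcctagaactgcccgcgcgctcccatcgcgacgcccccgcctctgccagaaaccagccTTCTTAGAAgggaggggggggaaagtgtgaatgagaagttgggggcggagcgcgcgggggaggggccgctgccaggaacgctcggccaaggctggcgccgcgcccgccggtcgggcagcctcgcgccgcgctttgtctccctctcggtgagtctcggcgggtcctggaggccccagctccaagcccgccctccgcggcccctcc
The motif is its own reverse complement, so 1 search covers both strands. Cish held it 2 times, as TTCCTGGAA and TTCTTGGAA starting at bases 251 and 262 of the window, and Socs3 held it 1 time, as TTCTTAGAA at base 97. All 10 members had a window and 8 had no match, Il6ra and Ifngr1 among them. Of the 32851 promoter windows of the table, 8.3% held the motif and 0.457% held 2 or more. A match is a description of these letters and does not show that a factor binds there.

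Cish, the SOCS protein that damps IL-2 and other Stat5 signals, had log2 levels of 8.78, 8.63 and 8.53 in wild type and 8.96, 9.03 and 9.08 in Tg-38 on ILMN_2718330. The groups were 0.18 apart. The means were 8.65 ± 0.13 and 9.02 ± 0.06 (SD, n = 3 each), a log2 difference of 0.37 (standard error 0.11), or 1.30-fold. The probe did not pass the adjusted threshold in the fit or in any of the 16 alternatives. On the deposited signals the groups overlapped, at 660.2, 525 and 460.1 in wild type and 590.7, 578.8 and 563.1 in Tg-38. With median scaling the log2 difference was 0.20, and relative to the median of all probes tested it was then 0.34.

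Socs3, the inhibitor of gp130, had log2 levels of 9.76, 9.44 and 9.49 in wild type and 9.53, 9.53 and 9.46 in Tg-38. Wild type replicate 1 was the highest and the others were mixed, with a log2 difference of -0.06 (95% interval -0.33 to 0.21). Socs1, the inhibitor of the interferon gamma receptor kinases, had log2 levels of 6.93, 7.52 and 7.04 in wild type and 6.87, 6.93 and 7.07 in Tg-38. The deposited signals of this gene, at 263.3, 296.1 and 231.4 against 223, 213.7 and 213.8, did not overlap. Wild type replicate 2 was high among the log2 levels, and the log2 difference of -0.21 (-0.57 to 0.15) became -0.03 without it. These intervals leave room for a change of either sign in both genes.

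Other ligands and receptors of the gp130 family were measured in part. This list and those below were chosen with earlier results of these data known. Their counts, shares, medians and p-values are therefore a description. Of 13 with a probe, 5 were tested and none passed the adjusted threshold, where 1.29% of all genes tested passed on their brightest probe (1.05% higher and 0.235% lower). Ctf1 was tested only because all 3 Tg-38 arrays detected it, with 1 wild type array. Over the 4 genes detected on all 6 arrays the median log2 difference was 0.33, beside 0.02 over all genes by the filter on 3 arrays. Il27ra, the receptor chain for IL-27, had log2 levels of 9.86, 9.94 and 9.97 in wild type and 10.45, 10.20 and 10.31 in Tg-38. Its groups did not overlap, with a log2 difference of 0.40 (standard error 0.11, adjusted p = 0.13 from limma). Lif, Lifr, Il11 and Clcf1 were among the 8 genes of this list not detected on enough arrays.

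Of 21 cytokines and receptors that use Jak2, Tyk2 or Stat3 and have a probe, 8 were tested and none passed, with a median log2 difference of 0.08. Il10ra, the chain that binds IL-10, had the smallest p, with a log2 difference of 0.49 (standard error 0.15, adjusted p = 0.15 from limma), and Il22ra1 had the smallest p of those below 0, at -0.33 (adjusted p = 0.33). Of the other JAK kinases and STAT factors, 6 of 7 were tested and none passed (median 0.02). Stat2, which acts in type I interferon signaling, had 0.29 (adjusted p = 0.27) and Stat4, which carries the IL-12 signal, had -0.21 (adjusted p = 0.43). Of 19 other inhibitors, 17 were tested and none passed (median -0.0019). Socs2, which is induced by growth hormone and Stat5, had 0.48 (adjusted p = 0.16), and Cbl, a ubiquitin ligase, had -0.67 (adjusted p = 0.27).

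Genes known to respond to interferon gamma lay mostly above 0, with 2 that passed. Of 34 genes with a probe 25 were tested, and Cxcl10, Gbp4 and Ido1 were among those not detected on enough arrays. Of the 25, 22 had a value above 0. An unadjusted p under 0.05 was reached by 11 above 0 and 1 below, which is 44% and 4% of those tested. Over all genes tested the shares were 10.6% and 6.94%. Since the list was chosen with earlier results known, nothing is read from these shares. The median log2 difference was 0.23, and with median scaling it was 0.08, where the median of all probes tested was -0.14. Of these genes Tgtp1 was detected on all 3 Tg-38 arrays and 1 wild type array, and over the 24 genes detected on all 6 arrays 21 lay above 0. Cxcl9, a chemokine that draws activated T cells, had log2 levels of 5.77, 6.32 and 6.26 in wild type and 7.99, 7.59 and 8.04 in Tg-38 and rose by 1.76 (standard error 0.18, adjusted p = 0.0057 from limma). Nlrc5, which switches on MHC class I genes, had 8.48, 8.54 and 8.35 in wild type and 9.52, 9.04 and 9.19 in Tg-38 and rose by 0.80 (standard error 0.14, adjusted p = 0.044). On both genes every Tg-38 mouse was above every wild type mouse. Gbp7, a guanylate-binding protein, had the smallest p of those below 0, at -0.35 (adjusted p = 0.21). Markers of NK or cytotoxic cells summed to 2038 to 2464 in wild type and 3137 to 3831 in Tg-38 (5 of 8 with a probe tested, with Klrd1 and Nkg7 called higher). Tbx21 and Klrb1c of this list were detected on all 3 Tg-38 arrays but on 0 and 1 wild type arrays, and 3 genes of the list were detected on all 6 arrays. The part of these cells in the differences was not tested. Ifng itself was not detected, and whether interferon gamma or another interferon underlies the differences was not tested. Nlrc5 missed the threshold when any 1 array other than wild type replicate 2 was left out, and Cxcl9 passed in all 6 omissions.

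Genes known to respond to Stat3 went in both directions. Of 25 with a probe 20 were tested, 8 of them above 0, with a median log2 difference of -0.03. An unadjusted p under 0.05 was reached by 4 above 0 and 2 below (20% and 10%). Bcl2l1, which encodes the survival protein Bcl-xL, was the 1 gene that passed. Its log2 levels were 9.22, 9.10 and 9.51 in wild type and 8.64, 8.53 and 8.56 in Tg-38, without overlap, and it fell by 0.70 (standard error 0.13, adjusted p = 0.048 from limma). It missed the threshold when any 1 array other than wild type replicate 2 was left out. Vim, the intermediate filament of mesenchymal and mobile cells, had the smallest p of those above 0, at 0.41 (adjusted p = 0.13).

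Of the genes known to respond to Stat5 in T cells, the pathway that induces Cish, 9 had a probe and 8 were tested. Of the 8, 6 had values above 0 and none passed. An unadjusted p under 0.05 was reached by 3 above 0 and 0 below (37.5% and 0%, beside 10.6% and 6.94% of all genes tested). Nothing is read from these shares, since the list was chosen with earlier results known. Socs2, Osm and Pim1 of this list are also in other lists above, so the lists are not independent. The median log2 difference was 0.16. With median scaling it was -0.01, where the median of all probes tested was -0.14. Il2ra, the alpha chain of the IL-2 receptor, had log2 levels of 7.05, 6.64 and 7.01 in wild type and 7.39, 7.57 and 7.46 in Tg-38. These did not overlap, with a log2 difference of 0.57 (standard error 0.14, adjusted p = 0.089 from limma). Pim1, a kinase induced by Stat factors, had -0.41 (adjusted p = 0.35).

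**Figure D3:**
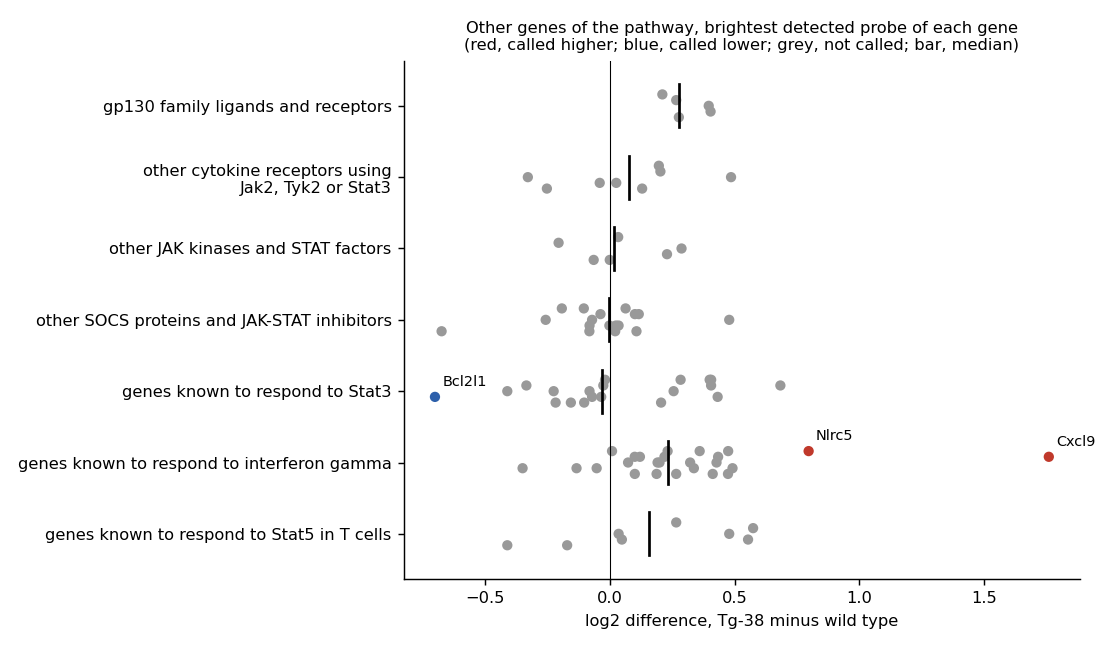
Log2 difference (Tg-38 minus wild type) of the other pathway genes, 1 point per gene on its brightest detected probe, with the median of each list as a bar. Cxcl9 at 1.76 and Nlrc5 at 0.80 passed as higher and Bcl2l1 at -0.70 as lower, and the other points did not pass at an adjusted p under 0.05.

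The genes whose levels followed Il6ra ILMN_1255743 most closely over the 6 arrays were Slc6a7 (Pearson r = 0.997), Bok (0.994), Olfr378 (0.991), Oas2 (0.989) and Myd88 (0.988). Those most like Ifngr1 were Nsd2 (0.996), Ctnnbip1 (0.994), Cd79b (0.993), Npc1 (0.992) and Stard3nl (0.992), with Cd79b, Npc1 and Stard3nl each on a dimmer probe than their brightest. The points share their arrays and both groups enter each r, so these values describe 6 arrays and are no test.

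**Figure D4:**
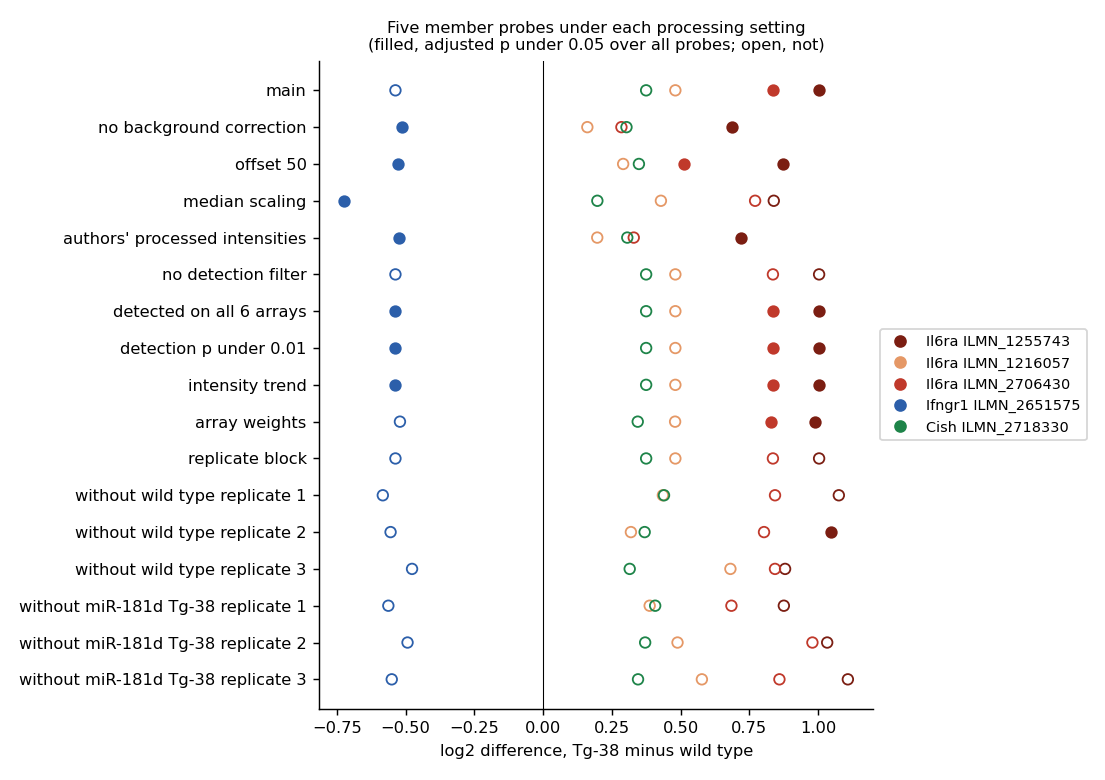
Log2 difference of the 3 Il6ra probes, Ifngr1 and Cish under each processing setting, filled where the probe passed the adjusted threshold of that setting and open where it did not. Each probe keeps its sign throughout, at 0.16 or more for Il6ra and Cish and at -0.48 or less for Ifngr1, while the calls come and go.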

How the data were processed

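RNA of 6 whole thymi (3 wild type, 3 Tg-38) was read on Illumina MouseWG-6 v2 arrays with GenomeStudio, whose version is not given in the sources used here. The deposited scanner table holds the average bead signal per probe as a linear intensity that was not normalized, and a detection p-value per probe. A second table of the authors' processed intensities served as an alternative. It is linear and uncentred, with background removed and medians of 1.726, 1.976 and 1.868 in wild type and 1.906, 1.951 and 2.028 in Tg-38, and how it was scaled is not given in the sources used here. Signals were corrected with neqc (offset 16, quantile normalization) in limma 3.58.1 under R 4.3.3. The fit was run on probes detected (p under 0.05) on 3 or more arrays, and lmFit and eBayes compared the groups without a block, at an adjusted p under 0.05. The 95% intervals use the moderated standard errors and are not adjusted for the number of probes or for the choice of the members. Levels of different probes were ranked only to find the brightest probe of a gene or list, and were added up in the marker sums. No difference in RNA amount between genes is read from them.

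Members and gene lists were chosen with earlier results of these data known. Named list genes are those called, up to 4 per direction, or otherwise the gene with the smallest p in a direction, on the brightest tested probe, with Il6 and Ifng always. Symbols come from the platform's annotation (34885 probes under 1 gene, 18 under several, 10378 under none). Nothing in the labels says that mice of the same number were paired. Same-numbered mice had deviations from the group mean that correlated at 0.03, -0.12 and -0.10. Figures were drawn with matplotlib 3.10.9.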

Additional observations from a re-analysis of the deposited data

How the results depend on the processing

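The signs of the 19 member differences were kept in 299 of 304 values under 16 alternatives, and of the 5 changes of sign 3 were on Jak2, Tyk2 and Socs3 probes near 0 with an array left out. The other 2, on Jak2 and Tyk2, came with median scaling, which lowered the median of all probes tested to -0.14, and relative to that median the values were 0.01 and 0.12. Calls were less stable. In place of 2 member probes, 3 passed (Ifngr1, lower, in addition) with offset 50, with detection on all 6 arrays, with a detection p under 0.01 and with an intensity trend. Without background correction and with the authors' processed intensities 2 passed, Il6ra probe ILMN_1255743 and Ifngr1. By contrast 1 passed with median scaling (Ifngr1, lower), 0 without a detection filter, 0 with the replicate block, and 0 to 1 when an array was left out. The t-test named in the methods gave 4 at an unadjusted p and 0 after Benjamini-Hochberg adjustment. It was run here on the normalized log2 levels of the same tested probes, so its counts are not those of the authors' analysis. Over all probes, 202 passed in the fit reported, against 397 without background correction, 442 with offset 50, 445 with the authors' processed intensities, 481 with an intensity trend, 48 without a detection filter, 27 with the replicate block, 15 to 315 with an array left out (315 without wild type replicate 2), and 2692 and 1 by the methods' t-test before and after adjustment. Of those, 72.8% were higher in the fit reported, 60.5% without background correction, 60.6% with offset 50, 57.5% with the authors' intensities, 61.1% with an intensity trend, 83.3% without a detection filter, 88.9% with the replicate block and 35.9% with median scaling, which moved the median of all probes tested to -0.14.

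Among interferon gamma genes, 2 passed in the fit reported, against 5 without background correction, 4 with offset 50, 1 with median scaling, 5 with the authors' intensities, 1 without a detection filter, 6 with an intensity trend, 1 with the replicate block, 0 and 12 by the methods' t-test after and before adjustment, and 1 to 2 with an array left out. Among Stat3 genes, where 1 passed, the numbers were 2 without background correction, 2 with the authors' intensities, 2 with an intensity trend, 0 without a detection filter, 0 with the replicate block, 0 and 4 by the methods' t-test after and before adjustment, and 0 to 2 with an array left out. The other lists went from 0 to 1 for gp130 family genes (Il27ra) without background correction, with the authors' intensities, with an intensity trend and by the methods' t-test at an unadjusted p. Stat5 genes reached 1 (Il2ra) with offset 50 and with the authors' intensities, and 3 by the methods' t-test at an unadjusted p, which also gave 2 for other cytokine receptors and 2 for other inhibitors. The cause of these changes was not tested. The same number on 2 mice is no pairing in the labels, and no mouse correlated best with its own number. With 3 mice a group, and with Il6ra probe ILMN_2706430 close to the detection limit, precision is limited.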
